A study of Mus musculus with 6 samples.

Results

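The genes described here are 10 mouse basement membrane genes, taken by symbol from the 54532 genes of the deposited table: the laminin chain genes Lama2, Lama4, Lama5, Lamb1, Lamb2, Lamc1 and Lamc3, the nidogens Nid1 and Nid2, and Hspg2, which codes for perlecan. All 10 were found, and all 10 passed the filter on low values. RNA came from eYFP-positive cells sorted out of enzymatically dissociated livers of CD-1 mouse embryos with the genotype Sm22-Cre/ROSA26RYFP, at embryonic day 16 (E16) and embryonic day 18 (E18). Each day has 3 libraries, lettered A, B and C, and both days carry the same alleles. Cre driven by the Sm22 promoter switches the reporter on in a cell and in its descendants, so the sort takes cells by the history of that promoter and not by its present activity. The labels give neither the number of embryos behind a library nor whether the 3 libraries of a day are independent pools, so the p-values measure only how far these libraries spread, and that spread may be technical.

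Laminins are the proteins around which a basement membrane is built. Each is a trimer of 1 alpha, 1 beta and 1 gamma chain, joined along a coiled coil before secretion, and named by its chain numbers. The alpha chain carries the globular domains that bind integrins and dystroglycan on the cell surface. Nidogens and perlecan tie the laminin network to the collagen IV network, and the heparan sulfate chains of perlecan hold growth factors. In liver, basement membranes lie around bile ducts and portal vessels and under the mesothelium.

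Values are TPM, transcript abundance per transcript length at a fixed library total, so levels can be compared between genes. Where 3 values are given for a day they stand in the order A, B, C. Read totals recovered from the TPM values were 21130196 to 22626885 at E16 and 14587544 to 18281942 at E18. The labelled mesenchyme was checked against its markers, given as summed TPM over the 3 libraries of each day. Smooth muscle markers summed to 16.5 to 44.7 at E16 and 157 to 327 at E18, hepatic stellate cell markers to 20.7 to 53.8 and 109 to 344, and portal fibroblast markers to 12.9 to 43.3 and 200 to 525. Tagln, the gene of the Sm22 promoter, had means of 1.06 ± 0.408 and 3.14 ± 0.258 TPM (SD, n = 3 each; limma adjusted p = 0.111). Exons of Pcsk7 and Gm48529 on the opposite strand cover 67.9% of its exon length, and without the strand setting, which is not given in the sources used, its reads and theirs cannot be told apart. Hepatocyte markers summed to 2160 to 9118 TPM at E16 and 386 to 1008 at E18, and erythroid markers to 4651 to 6107 and 9992 to 18081. The libraries are bulk samples, in which fewer cells of a type and less RNA per cell cannot be told apart.

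The comparison of E18 with E16 shows which of these transcripts differ between the days. Of the 10 genes, 7 rose and 0 fell: Lama2, Lama4, Lama5, Lamb1, Lamb2, Nid1 and Hspg2 passed at an adjusted p under 0.05 (limma on log2(TPM + 1), Benjamini-Hochberg over 17824 genes). Over all genes tested 3.08% were called higher, 0.387% lower and 3.47% in either direction. Lamc1, Nid2 and Lamc3 did not pass. Lamc3 reached the filter's minimum of 1 TPM in the 3 E18 libraries only, so its E18 values had to lie above its E16 values. Lama2 and Lama4 reached 1 TPM in 3 E18 libraries but in only 1 E16 library, so their entry leaned on E18 too. In the 9 genes other than Lamc3 the 3 E18 values also lay above the 3 E16 values. Over all genes tested, which include others that passed through 1 day only, this was so for 18.4%, while 8.05% lay wholly below. The median log2 fold change was 1.96 over the 10 genes and 0.07 over all genes tested. The exact permutation test gave p = 0.1 for each of the 10, the smallest that 3 libraries against 3 allow. For Lamc3 the filter fixed this value in advance.

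E18 replicate B held the highest E18 value of every one of the 10 genes, 1.41 to 2.83 times the mean of the other two E18 libraries. Stromal markers were highest there too: the smooth muscle, stellate and portal fibroblast lists together summed to 1196 TPM, against 625 in E18 replicate A and 466 in C. At E16, replicate C was highest for 8 of the 10 genes, and the same marker sum was 142 TPM there, against 50.01 in A and 67.0 in B. The part of these markers in the results was not tested. The calls needed nearly all libraries. Without E16 replicate A, B or C, or without E18 replicate A or B, limma called 0 of the 10 genes, although all 10 kept an unadjusted p under 0.05 and a positive fold change in each of these fits. Without E18 replicate C it called 8.

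**Figure D1:**
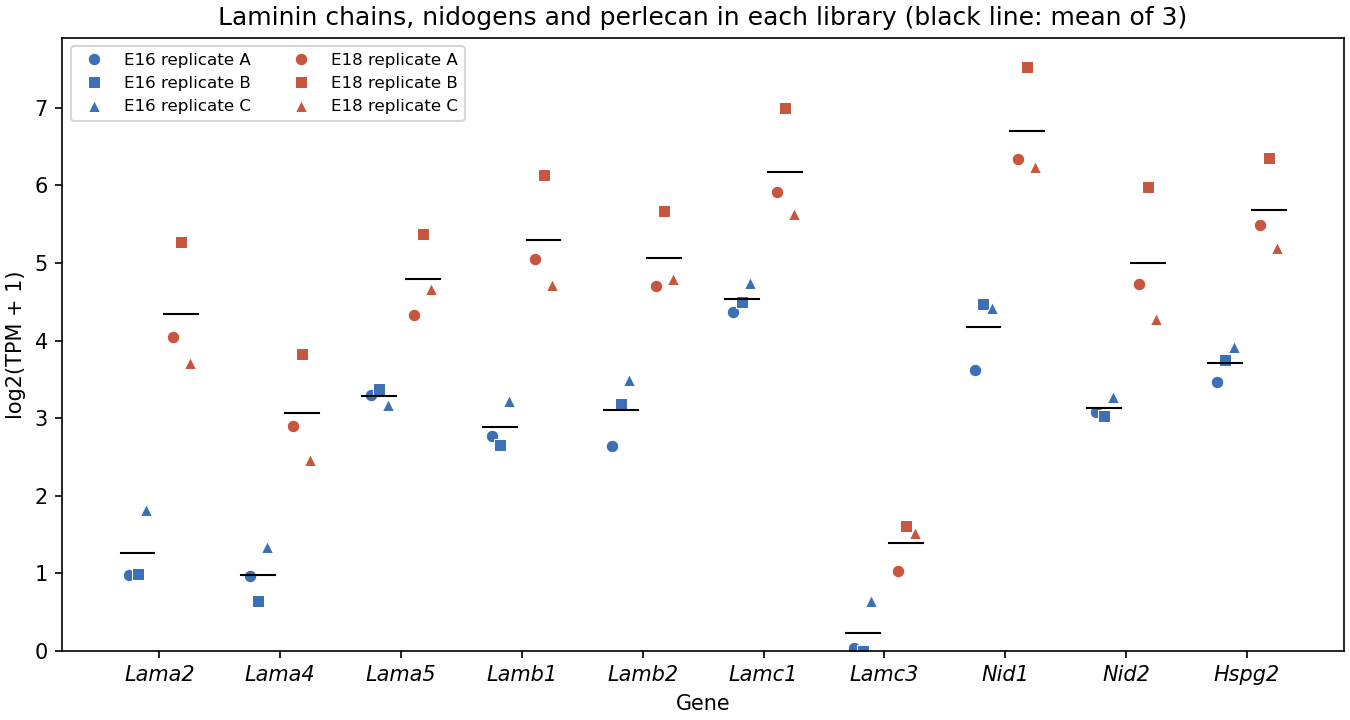
Level of each gene in each library on the log2(TPM + 1) scale, with E16 in blue, E18 in red, a marker shape per replicate letter and a black line at the mean of 3. The 3 E18 points lie above the 3 E16 points, for Lamc3 because it passed the filter through E18 only, and E18 replicate B is the highest.

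**Figure D2:**
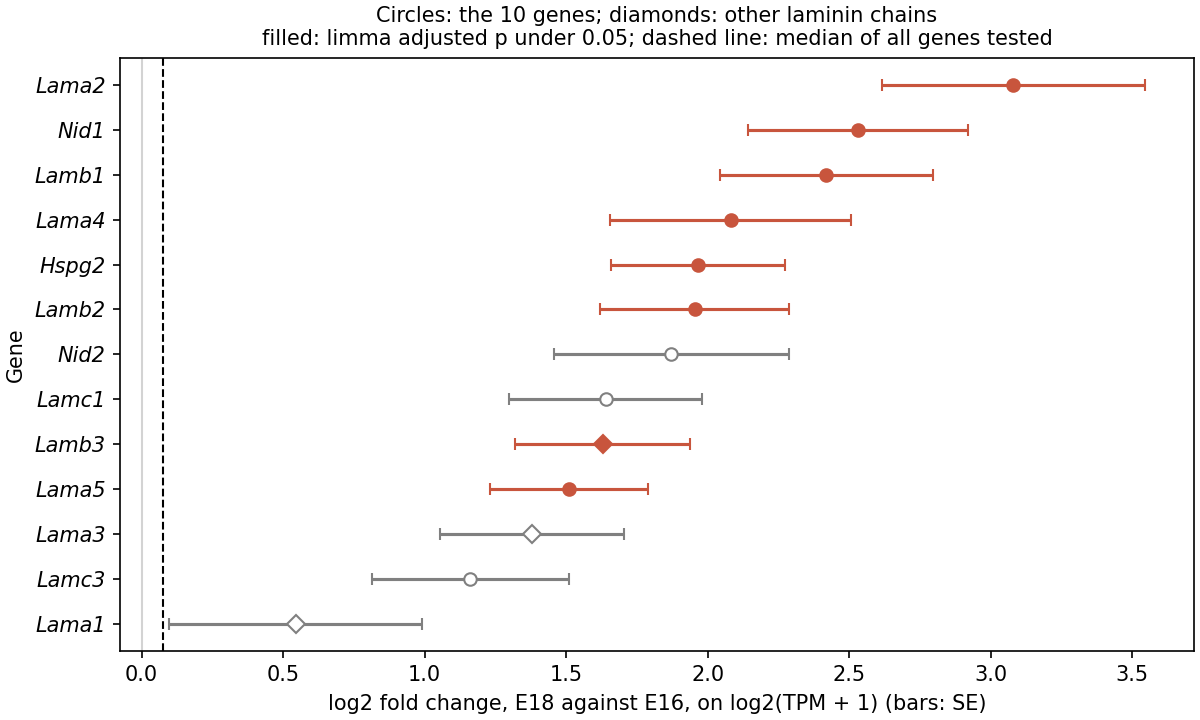
Log2 fold change of E18 against E16 (x axis, log2(TPM + 1) scale, bars are SE) for the 10 genes (circles) and 3 other laminin chains (diamonds), filled where the limma adjusted p is under 0.05. Lama2 is at 3.08, Lama1 at 0.54, and the dashed line marks the median of all genes tested at 0.07. Lamc3, Lama3 and Lamb3 passed the filter through the E18 libraries only.

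All 3 alpha chains among the 10 genes rose, Lama2 the most. Lama2 (ENSMUSG00000019899, mm10 chromosome 10, 26980036 to 27619758) codes for the alpha2 chain of laminins around muscle and Schwann cells, the chain lost in merosin-deficient muscular dystrophy. It measured 0.977, 0.986 and 2.50 TPM at E16 against 15.5, 37.4 and 12.1 TPM at E18. The lowest E18 library lay several times above the highest E16 library. Its log2 fold change was 3.08 ± 0.47 (SE), with a limma adjusted p of 0.0326, and ranked 60 from the top among the 17824 genes.

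Lama4 (ENSMUSG00000019846, chromosome 10, 38965515 to 39110188) codes for alpha4, a chain that lacks the N-terminal domain used for polymerisation and is known from vessel walls. Its E16 values were 0.959, 0.561 and 1.52 TPM, and its E18 values 6.46, 13.2 and 4.51 TPM. The days did not overlap. The log2 fold change was 2.08 ± 0.43 (SE), and its limma adjusted p of 0.0494 was the closest to the threshold among the 7 called genes.

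Lama5 (ENSMUSG00000015647, chromosome 2, 180176373 to 180225859) codes for alpha5, the most widespread alpha chain of mature basement membranes. Its E16 values were close together, at 8.83, 9.33 and 7.99 TPM, and its E18 values were 19.1, 40.4 and 24.4 TPM. Again no E18 library came down to the E16 range. The rise was 1.51 ± 0.28 on the log2 scale (SE; limma adjusted p = 0.0412).

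Start-site windows from RefSeq (250 bases before to 50 after, GRCm38.p6) were used for 6 of the 10 genes: Hspg2, Lama2, Lama5, Lamb1, Lamb2 and Nid1. The windows of Lama2 and Lama5 are shown because these are the called genes with the largest and the smallest fold change. They run 5′ to 3′ on the gene's strand, with matches to the GC box GGGCGG on either strand in capitals. That of Lama2 is chr10:27616893-27617192 and that of Lama5 chr2:180225810-180226109, both on the minus strand. The Lama2 window lies wholly inside the gene, whose 5′ end is at 27619758. The Lama5 window holds the 5′ end of its gene, at 180225859. The windows thus differ in position, and a difference in their letters may reflect which start site was used.
Lama2: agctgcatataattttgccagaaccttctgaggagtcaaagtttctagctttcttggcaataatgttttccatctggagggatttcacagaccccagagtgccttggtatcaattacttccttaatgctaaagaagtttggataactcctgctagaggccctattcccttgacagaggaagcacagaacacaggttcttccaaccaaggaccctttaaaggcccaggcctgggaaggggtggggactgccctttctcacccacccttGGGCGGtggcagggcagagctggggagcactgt
Lama5: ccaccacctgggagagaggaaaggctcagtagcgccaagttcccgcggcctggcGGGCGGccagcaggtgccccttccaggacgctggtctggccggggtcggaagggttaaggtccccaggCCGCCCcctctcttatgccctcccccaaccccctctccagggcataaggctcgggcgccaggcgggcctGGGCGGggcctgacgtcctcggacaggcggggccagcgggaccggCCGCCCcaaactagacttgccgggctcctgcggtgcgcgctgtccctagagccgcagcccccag
The Lama2 window holds 1 CpG and 1 GC box, and the Lama5 window 24 CpGs and 4 GC boxes. Hspg2 has 27 CpGs, Nid1 20, Lamb1 18 and Lamb2 4, against a median of 7 over 32851 windows of this length. The GC box is in 5 of the 6 windows, Lamb2 being the exception, and in 35.7% of all windows. The TATA box TATAAA, searched on both strands, is in 0 of the 6 and in 13.6% of all windows. Also searched were the SMAD element CAGAC (4 of the 6 and 49.6% of all windows), the TEAD element GGAATG (1 and 14.7%) and the E-box CANNTG (4 and 72.3%). These are letter matches and do not show binding.

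Both beta chains among the 10 genes rose. Lamb1 (ENSMUSG00000002900, chromosome 12, 31265234 to 31329644) codes for beta1, the beta chain of most embryonic laminins. It measured 5.80, 5.31 and 8.32 TPM at E16 against 32.1, 69.3 and 25.3 TPM at E18. The days were far apart, with a log2 fold change of 2.42 ± 0.38 (SE) and a limma adjusted p of 0.0331.

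Lamb2 (ENSMUSG00000052911, chromosome 9, 108479736 to 108490530) codes for beta2, the beta chain of the glomerulus, the neuromuscular junction and arterial walls. Its E16 values were 5.22, 8.09 and 10.2 TPM, and its E18 values 25.1, 50.03 and 26.8 TPM. There was no overlap here either. The log2 fold change was 1.95 ± 0.33 (SE), with a limma adjusted p of 0.0358.

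Neither gamma chain among the 10 genes passed the test. Lamc1 (ENSMUSG00000026478, chromosome 1, 153218922 to 153332786) codes for gamma1, the gamma chain of most laminins. It measured 19.7, 21.6 and 25.8 TPM at E16 against 59.3, 126 and 48.4 TPM at E18. Each E18 value exceeded each E16 value, but the log2 fold change of 1.64 ± 0.34 (SE) came with a limma adjusted p of 0.0505, just over the threshold.

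Lamc3 (ENSMUSG00000026840, chromosome 2, 31887291 to 31946539) codes for gamma3, a rarer chain, and was the lowest of the 10 genes on both days. At E16 it measured 0.0240, 0 and 0.558 TPM from 1, 0 and 22 reads, and at E18 1.04, 2.05 and 1.87 TPM from 28, 57 and 63 reads. The 0 reads of E16 replicate B allow a level of up to 0.0742 TPM (3 reads, counting error only). The difference on the log2(TPM + 1) scale was 1.16 ± 0.35 (SE; limma adjusted p = 0.112), a scale that understates changes of so low a gene. With limma's voom on recovered reads it was 4.67 (adjusted p = 0.0365). The filter had fixed the direction of Lamc3 in advance, so this p-value is a description only. The other 9 genes rested on 45 to 5818 reads per library. Exons of Gm13441 on the opposite strand cover 6.27% of the exon length of Lamc3, and whether counting used the strand is not given in the sources used.

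Nidogens bind gamma1 through a short loop of its arm. The 21 coding bases of that loop lie in exon 14 of Lamc1 (chr1:153243361-153243381, minus strand), and the closest stretch of Lamc3 lies in its exon 14 (chr2:31920598-31920618, plus strand). They are shown 5′ to 3′ because nidogen transcripts are also compared with Lamc1, with the 7 bases that differ in capitals. The Lamc3 stretch matches 5 of the 7 residues of the loop motif, and whether gamma3 binds nidogens was not tested.
Lamc1: aacAtAgaCcCcaaCgcGgtT
Lamc3: aacGtGgaTcTcaaTgcTgtG

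Of the nidogens, Nid1 rose and Nid2 did not pass. Nid1 (ENSMUSG00000005397, chromosome 13, 13437551 to 13512269) codes for nidogen-1, which links laminin gamma1 to collagen IV. It measured 11.3, 21.2 and 20.4 TPM at E16 against 80.3, 183 and 74.2 TPM at E18. This made it the highest of the 10 genes at E18, at a log2 fold change of 2.53 ± 0.39 (SE), with a limma adjusted p of 0.0328.

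Nid2 (ENSMUSG00000021806, chromosome 14, 19751265 to 19811787) codes for the related nidogen-2, which can stand in for nidogen-1 in many tissues. Its E16 values were 7.42, 7.16 and 8.68 TPM, and its E18 values 25.6, 62.2 and 18.4 TPM. The days did not overlap, but the E18 libraries spread widely. The log2 fold change was 1.87 ± 0.41 (SE), with a limma adjusted p of 0.0560. Exons of Rtraf on the opposite strand cover 8.45% of the exon length of Nid2, and whether counting used the strand is not given in the sources used.

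Perlecan transcripts rose as well. Hspg2 (ENSMUSG00000028763, chromosome 4, 137468769 to 137570630) measured 10.1, 12.4 and 14.1 TPM at E16 against 43.8, 80.8 and 35.6 TPM at E18. The gap between the days was clear of overlap, and the log2 fold change was 1.97 ± 0.31 (SE; limma adjusted p = 0.0331).

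In order of level, Lamc1 led at E16 with a mean of 22.4 ± 3.09 TPM (SD, n = 3), followed by Nid1 (17.6 ± 5.51), Hspg2 (12.2 ± 2.03), Lama5 (8.72 ± 0.681), Lamb2 (7.85 ± 2.51), Nid2 (7.75 ± 0.817) and Lamb1 (6.48 ± 1.61). Lama2 (1.49 ± 0.879), Lama4 (1.01 ± 0.483) and Lamc3 (0.194 ± 0.315) stood well below them. Neighbours in this order kept it in 3 of 3 libraries, except Lama5 over Lamb2 and Lamb2 over Nid2, in 2 of 3. At E18 Nid1 (113 ± 61.3) came before Lamc1 (78.0 ± 42.2), Hspg2 (53.4 ± 24.1), Lamb1 (42.2 ± 23.7), Nid2 (35.4 ± 23.5), Lamb2 (34.0 ± 13.9), Lama5 (27.9 ± 11.1), Lama2 (21.7 ± 13.7), Lama4 (8.06 ± 4.57) and Lamc3 (1.65 ± 0.537). Here Nid2 over Lamb2 held in 2 of 3 libraries and each other neighbour pair in 3 of 3. Levels depend on the length used. The merged exons that fit the deposited values are 1.996 times as long as the longest coding transcript for Lama4, 1.71 times for Lamb1 and 1.70 times for Lama2, and at most 1.14 times for the other 7 genes. On the coding transcript's length the mean E18 level of Lama2 would be 36.8 TPM, above the 27.9 TPM of Lama5.

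The make-up of the alpha chains differed between the days. Of the summed TPM of the 5 alpha chain genes, Lama2 took 6.69%, 7.12% and 14.8% at E16 against 32.9%, 35.2% and 26.3% at E18. Lama1, the chain of the earliest embryonic basement membranes, took 25.1%, 20.5% and 27.4% at E16 against 8.99%, 11.4% and 7.74% at E18. So the shares of Lama2 and Lama1 moved in opposite directions, each without overlap between the days. The share of Lama4 was 6.53% ± 2.46 at E16 and 11.98% ± 1.999 at E18 (SD, n = 3), also without overlap. Lama5 had the largest mean share on both days, 58.3% ± 10.3 and 43.8% ± 7.97, with overlapping values.

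Beta chain shares overlapped between the days, at 44.8% ± 6.44 and 52.1% ± 5.01 for Lamb1 and 53.3% ± 6.37 and 43.9% ± 4.61 for Lamb2 (SD, n = 3). On the coding transcript's length they were 56.0% and 62.8% for Lamb1 and 42.1% and 33.4% for Lamb2, which turns their order at E16. Of the summed TPM of Lamc1 and Lamc3, Lamc3 took 0.747% ± 1.19 at E16 against 2.35% ± 1.19 at E18, with overlapping days. Over 10 chain shares the exact 2-sided permutation p was 0.1 wherever the days did not overlap, or 0.2 after Benjamini-Hochberg adjustment, so none passed and none could have. On the coding transcript's length the mean share of Lama2 was 14.1% and 39.7%, and that of Lama5 51.7% and 32.8%.

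**Figure D3:**
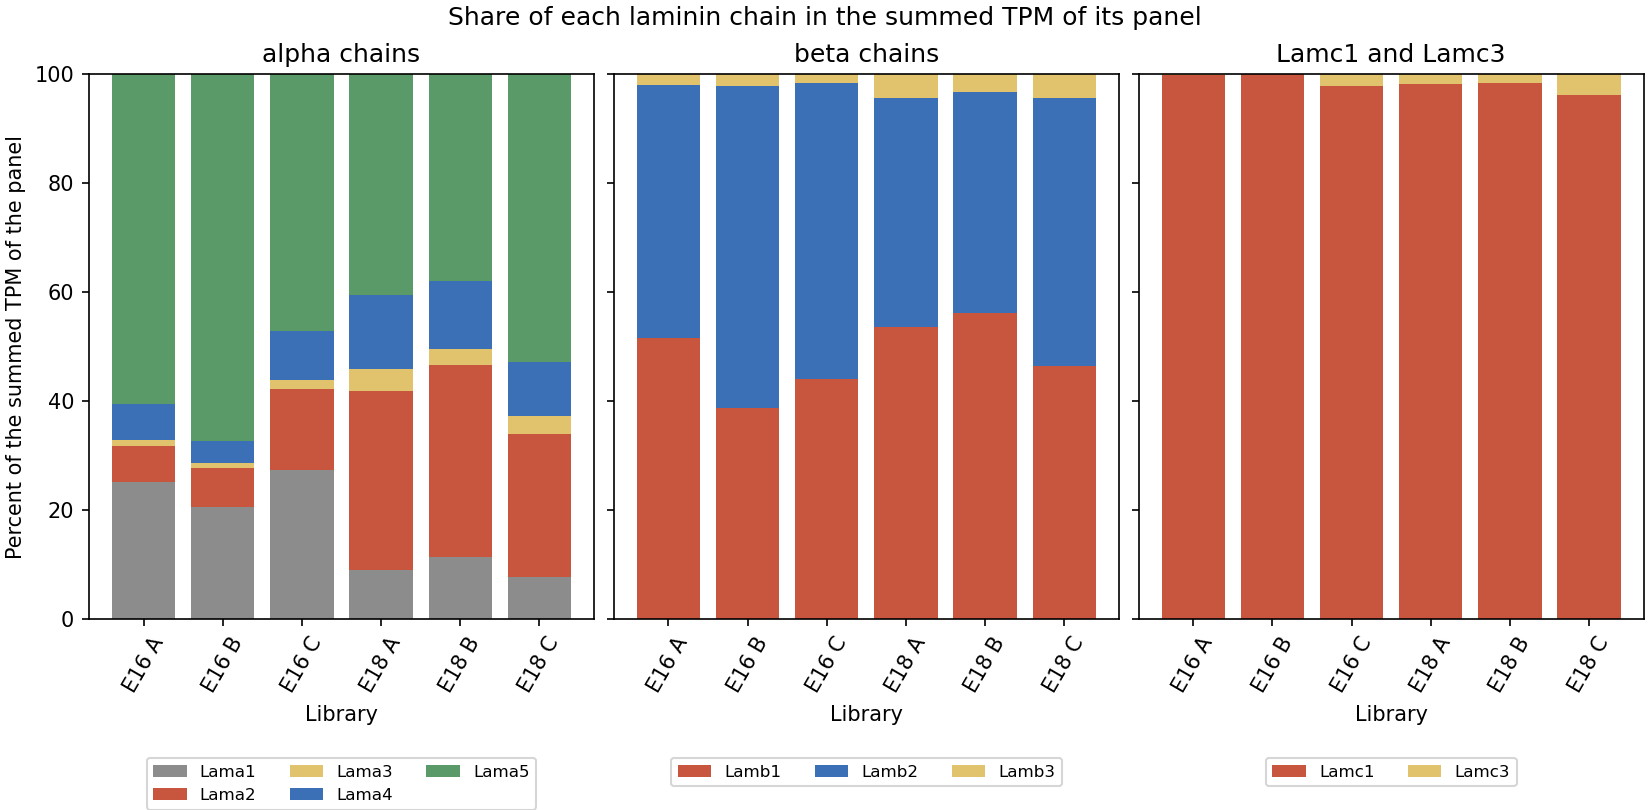
Share of each laminin chain in the summed TPM of the alpha chains, of the beta chains and of Lamc1 with Lamc3 (y axis, percent) in the 6 libraries (x axis). In the alpha panel Lama2 (red) is at 6.69% to 14.8% in E16 libraries and 26.3% to 35.2% in E18 libraries, while Lama1 (grey) is at 20.5% to 27.4% and 7.74% to 11.4%.

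Summed Lamc1 and Lamc3 had a lower ratio to the beta chains at E18 than at E16. The ratio of summed Lamc1 and Lamc3 TPM to beta chain TPM was 1.76, 1.58 and 1.396 at E16 against 1.01, 1.04 and 0.923 at E18. Its ratio to alpha chain TPM was 1.49 ± 0.118 and 1.19 ± 0.0964 (SD, n = 3). The ratio of beta to alpha chain TPM was 0.957 ± 0.173 and 1.20 ± 0.0580. A trimer takes 1 chain of each kind, and at E18 the alpha sum, the beta sum and that of Lamc1 and Lamc3 were 66.5 ± 34.4, 79.2 ± 38.3 and 79.7 ± 42.5 TPM. Nidogen TPM per Lamc1 TPM was 0.947, 1.31 and 1.13 at E16 against 1.79, 1.94 and 1.91 at E18. Hspg2 per Lamc1 was 0.545 ± 0.0326 and 0.705 ± 0.0564. These 5 ratios did not overlap between the days (exact permutation p = 0.1 each, 0.113 adjusted over the 9 ratios computed). On the coding transcript's length, an alternative chosen after seeing the data, Lamc1 and Lamc3 over beta chains was 1.25 ± 0.124 at E16 against 0.755 ± 0.0308 at E18. Over alpha chains it was 1.42 ± 0.118 and 0.963 ± 0.0479. Beta over alpha chains then overlapped between the days, at 1.15 ± 0.153 and 1.28 ± 0.0531, and the other 4 ratios did not.

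Stromal markers differed by a larger factor than the 10 genes did. The summed TPM of the 10 genes was 70.3, 86.7 and 100.1 at E16 against 308, 665 and 272 at E18. Divided by the summed smooth muscle, stellate and portal fibroblast markers, it was 1.41, 1.29 and 0.706 at E16 against 0.493, 0.556 and 0.583 at E18. E16 replicate C lay nearest to the E18 libraries, and the days did not overlap (exact permutation p = 0.1). The ratios were chosen after the levels had been seen.

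**Figure D4:**
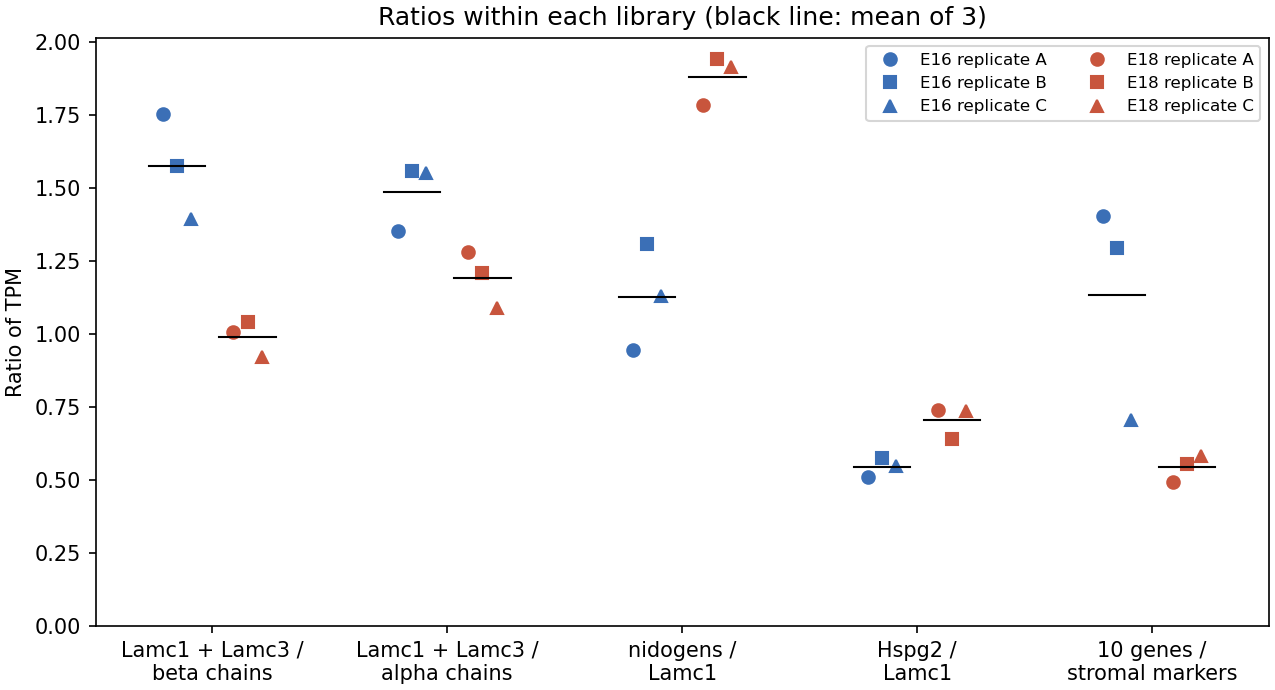
Ratios of TPM within each library (y axis) at E16 (blue) and E18 (red), with a marker shape per replicate letter and a black line at the mean of 3. Lamc1 and Lamc3 over beta chains lies between 1.396 and 1.76 at E16 and between 0.923 and 1.04 at E18, and nidogens over Lamc1 between 0.947 and 1.31 and between 1.79 and 1.94.

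The chains among the 10 genes allow 9 described trimers: laminins 211, 221, 213, 411, 421, 423, 511, 521 and 523. At E16 all chains reached 1 TPM in 3 of 3 libraries for 2 of the 9, laminins 511 and 521. At E18 they did so for 9 of 9. On the coding transcript's length the counts were 6 and 9 of the 9, laminins 211, 221, 411 and 421 being the 4 added at E16. In laminins 211, 221, 411 and 421 the alpha chain was the lowest in every library, so that laminin 211 had a lowest chain of 1.49 ± 0.879 TPM at E16 against 21.7 ± 13.7 TPM at E18 (SD, n = 3). In laminin 511 the lowest chain was Lamb1 in E16 replicates A and B and Lama5 in the other 4 libraries, at 6.37 ± 1.42 and 27.9 ± 11.1 TPM. The coding length turned this to Lama5 in E16 replicate A for laminin 511, and made Lamb2 the lowest chain of laminin 221 in E18 replicate B. In the laminins with gamma3 it was Lamc3 throughout, at 1.65 ± 0.537 TPM at E18. Transcript levels in bulk show neither protein nor whether the chains of a trimer were made in the same cell.

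Of the other laminin chains, 3 are given here. Lama1 (chromosome 17, 67697259 to 67822647) measured 3.66, 2.85 and 4.64 TPM at E16 against 4.24, 12.1 and 3.57 TPM at E18. Its days overlapped, the log2 fold change being 0.54 ± 0.45 (SE) with a limma adjusted p of 0.566, and at E16 it lay above Lama2 and Lama4 in each library. Lama3 and Lamb3 code for alpha3 and beta3, chains of laminins that anchor epithelia. Both were under 1 TPM in every E16 library and over 1 TPM in every E18 library. Both passed the filter through the E18 libraries only, so that their E18 values had to be the higher ones. Lamb3 measured 0.221, 0.296 and 0.304 TPM at E16 against 2.64, 4.003 and 2.35 TPM at E18, and Lama3 at most 0.302 TPM and at least 1.53 TPM.

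Markers of epithelium and mesothelium did not all differ in 1 direction. Krt19, a keratin of bile ducts and mesothelium, had means of 5.07 ± 0.642 and 20.6 ± 7.99 TPM, and the mesothelial gene Msln 2.54 ± 0.246 and 23.1 ± 7.18 TPM (SD, n = 3). The mesothelial list summed to 14.3 to 17.2 TPM at E16 and 57.1 to 104 at E18, with 3 of 5 genes called higher, against 3.08% of all genes tested. The cholangiocyte list summed to 10.9 to 22.5 and 21.9 to 38.1 TPM, so its days overlapped, and 1 of its 3 tested genes, Krt19, was called. With voom on recovered reads all 3 were called, against 1465 of 17818 over all genes. Krt7, also among the 3, measured 0.893, 1.24 and 1.20 TPM at E16 against 3.70, 5.46 and 3.59 TPM at E18. Its log2 fold change was 1.30 ± 0.30 (SE), with a limma adjusted p of 0.0621. Cdh1, the epithelial cadherin, measured 3.23, 12.9 and 5.84 TPM at E16 against 0.594, 0.335 and 1.15 TPM at E18 (log2 fold change −2.15 ± 0.48, SE; limma adjusted p = 0.0578). The list's marker Epcam is listed at 0 in 5 libraries and at 0.532 TPM in E18 replicate C. The part of these cell types in the laminin values was not tested.

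Endothelial cells are a known source of alpha4, alpha5 and perlecan. Of 12 endothelial markers 8 were under 1 TPM in every library. Cdh5 is listed at 0 in the 3 E16 libraries and in E18 replicate C, and at 0.270 and 0.260 TPM in E18 replicates A and B. The endothelial list summed to 32.7 to 50.3 TPM at E16 and 25.7 to 35.04 at E18, mostly from Egfl7 (34.3 ± 7.08 and 16.9 ± 5.14 TPM). Schwann cell markers, of a cell type that makes alpha2, summed to 0.814 to 3.11 TPM at E16 and 3.14 to 8.52 at E18. The part of both cell types in the values of the 10 genes was not tested.

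Among the matrix partners of laminin, 22 of 24 tested genes (26 listed) had a positive log2 fold change, against 57.0% of all genes tested. The negative 2 were Col18a1 (−0.42) and Smoc1 (−0.91), neither of them called. Against 3.08% called higher and 0.387% lower over all genes tested, 13 of the 24 rose and 0 fell, at a median of 1.80. Those with the smallest p were Col15a1 (3.23 ± 0.39, log2 fold change ± SE), a collagen at the outer face of basement membranes, Col4a3 (2.16 ± 0.28), a collagen IV chain, Fbln1 (2.77 ± 0.38), a laminin-binding fibulin, and Sparc (2.70 ± 0.38), a collagen-binding matrix protein. Their limma adjusted p ran from 0.0273 to 0.0314.

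Of the laminin receptors limma called 0 of 8 tested genes (9 listed), with 3 at an unadjusted p under 0.05 and 2 called by voom. Over all genes, 3720 of 17824 had an unadjusted limma p under 0.05, and voom called 1465 of 17818. The median log2 fold change was 0.77, and all 8 were positive, against 57.0% of all genes tested. Itga7, with a mean of 0.286 TPM at E16, passed the filter through the E18 libraries only, which fixed its direction. Itga1, the alpha subunit of a collagen and laminin integrin, had means of 1.34 ± 0.218 and 8.86 ± 5.35 TPM (SD, n = 3; limma adjusted p = 0.0505). Bcam, a receptor for alpha5, had means of 6.04 ± 3.24 and 17.2 ± 5.998 TPM (limma adjusted p = 0.104). Whether receptors and matrix partners differ was not tested.

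Dystroglycan links laminin alpha chains to dystrophin inside the cell. For comparison with the counts that follow, 3.08% of all genes tested were called higher. Of 9 tested genes of the dystrophin-glycoprotein complex (12 listed) 1 rose, the syntrophin gene Sntb2, by 1.94 ± 0.39 on the log2 scale (SE; limma adjusted p = 0.0463), and the list's median was 1.31. Sgcd in this list, with a mean of 0.293 TPM at E16, passed the filter through the E18 libraries only, which fixed its direction. Of 18 tested genes for heparan sulfate, the sugar of perlecan (19 listed), 2 rose, and the median was 0.07. They were Sulf2 (2.22 ± 0.32, log2 fold change ± SE; limma adjusted p = 0.0314) and Sulf1 (1.48 ± 0.28; limma adjusted p = 0.0414), the sulfatases that trim heparan sulfate outside the cell.

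**Figure D5:**
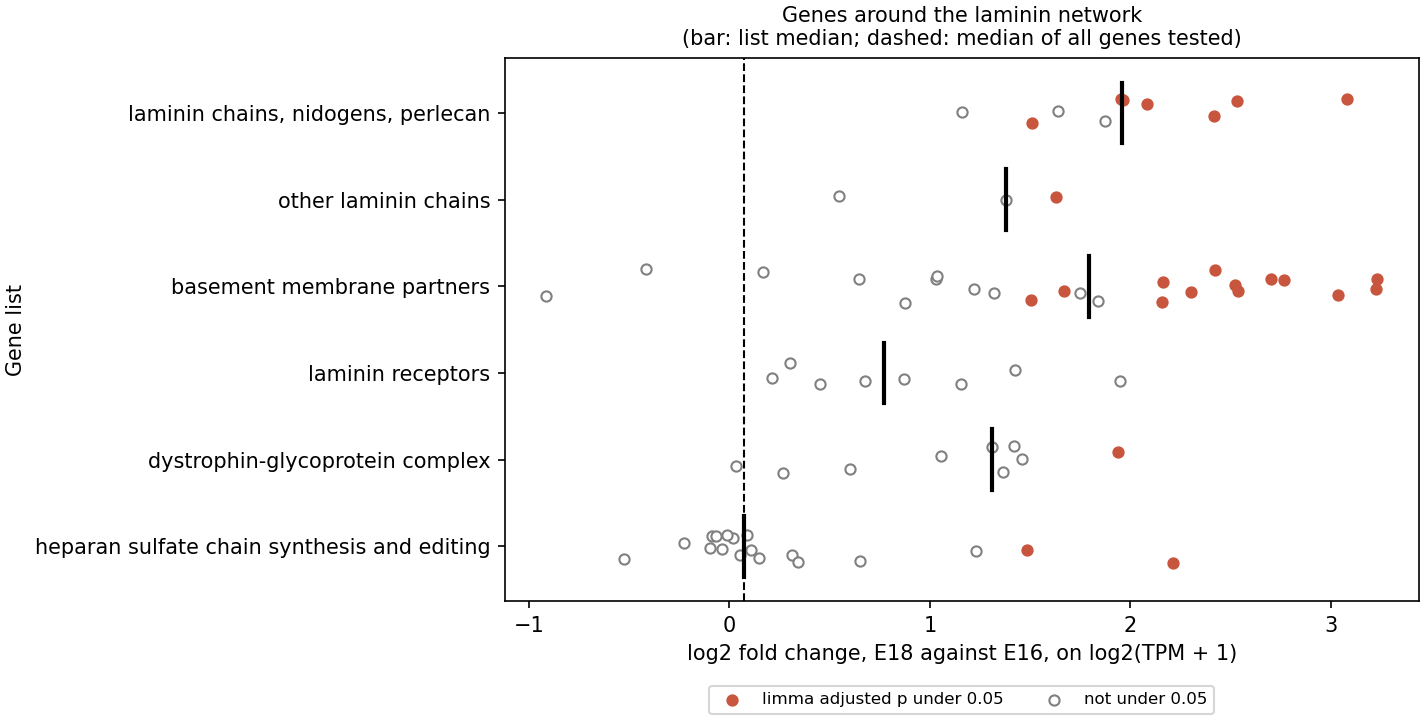
Log2 fold change of E18 against E16 (x axis, log2(TPM + 1) scale) for each tested gene of 6 lists (y axis), filled red where the limma adjusted p is under 0.05, with a black bar at the list median and a dashed line at the median of all genes tested. The 10 genes have a median of 1.96, the basement membrane partners 1.80 and the laminin receptors 0.77. Lamc3, Lama3, Lamb3, Itga7 and Sgcd passed the filter through the E18 libraries only.

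The genes most like Lamc1 in pattern were sought among 12235 tested protein-coding genes outside the 10, by Pearson correlation of log2(TPM + 1) over the 6 libraries. They were Arhgef10, Lrig3, Nckap5l, Speg and Daam2, with r from 0.9982 to 0.9998. The 6 points share depth and composition, and 131 genes had r above 0.99, so the order among them is a description only. Among the 10 genes themselves, Nid2 was closest to Lamc1 (r = 0.997) and Lamc3 farthest from it (r = 0.891).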

How the data were processed

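RNA of eYFP-positive sorted liver cells was measured in 6 libraries made with a stranded total RNA kit, per the labels' protocols. The deposited table holds TPM calculated by the authors for 54532 genes. The submitters' processing notes list the build mm10 and the tools HISAT2 2.1.0, HTSeq 0.5.4p3, Bowtie and FastQC 0.11.7, in no stated roles. Annotation and strand setting: not given in the sources used here. Symbols covered 54409 identifiers. Positions, exon lengths and transcripts came from GENCODE M21 (GRCm38), and start-site windows from RefSeq.

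Multiplying TPM by merged exon length and dividing by what 1 read is worth in the library gave reads, whole to within 0.05 for 96.8% to 97.1% of values above 0. The 17824 genes at 1 TPM or more in at least 3 libraries entered limma 3.58.1 (R 4.3.3), fitted to log2(TPM + 1) using an intensity trend and no replicate block. Fold changes on this scale understate low genes. Data were also simulated with noise drawn independently for each gene, without differences that a library's genes share, so the rates may not hold here. On the simulated data the method recovered 12.8% of 2-fold, 45.1% of 4-fold and 74.2% of 8-fold changes, with 4.15% of calls false. A gene that did not pass may therefore still differ. Named were the 10 genes, 3 other laminin chains, up to 4 called genes per pathway list (where none was called, the 2 with the smallest p) and the 5 genes most like Lamc1. The 10 genes and all lists were chosen with earlier results of these data known. Some genes, a list holding some of them and a sequence are not reported here, and the gamma chain values cover Lamc1 and Lamc3. The nidogen-binding loop was located by its known residue motif. Alternatives covered pseudocount, filter, scaling, trend, weights, block, voom on reads and left-out libraries.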

Additional observations from a re-analysis of the deposited data

How the results depend on the processing

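Over the 20 alternatives, all 198 fold changes of the 10 genes stayed positive and the 70 chain share differences kept their direction, but the calls did not hold throughout. Since the days did not overlap for any of the 10 genes, most alternatives could not turn a sign. Only scaling, quantile normalization and voom could have. Leaving out a library likewise could not turn the chain shares whose days did not overlap. Of 618 genes called over all genes tested and 7 of the 10 genes, the counts were 0 and 0 without a filter on low values (4571 of 29216 genes and all 10 at an unadjusted p under 0.05). They were also 0 and 0 with both B libraries left out, a setting chosen after seeing the data (2846 genes and 9 of the 10 at an unadjusted p under 0.05). With the letter as a replicate block both counts were 0 as well (3195 genes and all 10 at an unadjusted p under 0.05). The labels do not tie the letters together, and same-letter libraries deviated together weakly or not at all (r = 0.102 for A, −0.139 for B and −0.117 for C). Leaving out 1 library gave 0 to 664 genes and 0 to 8 of the 10: 0 genes without E16 replicate A or C or E18 replicate A or B (2765 to 3438 at an unadjusted p under 0.05), 55 in the fit lacking E16 replicate B, and 664 in that lacking E18 replicate C. The count over all genes was 347 with a pseudocount of 5, 406 at a minimum of 5 TPM, 399 with quantile normalization, 1069 after rescaling without Gm26917, mitochondrial and small RNA genes, 4316 with array weights and 1465 with voom on recovered reads, where all 10 genes were called. The share of higher calls was 88.8%, but 78.7% with quantile normalization, 76.5% after that rescaling and 64.8% with array weights; quantile normalization moved the median of all genes from 0.07 to −0.08. The cause was not tested. Depth limits Lamc3, whose log2 fold change ran from 0.36 (pseudocount 5) to 4.67 (voom). Its direction was fixed by the filter, so its call by voom is a description only.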
